A study of Homo sapiens with 12 samples.

Results

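The transcripts examined here encode the 6 subunits of DSIF and NELF, the protein complexes that hold RNA polymerase II in the promoter-proximal pause. They are the genes SUPT4H1 and SUPT5H (DSIF) and NELFA, NELFB, NELFCD and NELFE (NELF). The genes were taken by symbol from a table of 57704 genes, all 6 were found, and all 6 were among the 13811 genes with enough counts to be tested. The cells, HEK293, are an established line from human embryonic kidney and carried a stably expressed reporter in which an endogenous intronic sequence and DARP are joined to EGFP. All 12 cultures came from 1 starting culture of that reporter line, and 6 were transfected with pooled SUPT4H1 siRNAs and 6 with scrambled siRNAs, each at 100 nM. RNA was taken after 72 hours from 1000000 cells per sample, with ERCC RNA standards (mix 1 in every scrambled sample, mix 2 in every SUPT4H1 sample) added to the lysate, and 3′ ends of polyadenylated RNA were sequenced and counted per gene.

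DSIF is a heterodimer of SPT4 (gene SUPT4H1) and SPT5 (gene SUPT5H) that rides on elongating RNA polymerase II. SPT4 is a small zinc-binding protein that contacts the NGN domain of SPT5. Together with NELF, DSIF holds the polymerase shortly after initiation, until the kinase P-TEFb phosphorylates SPT5, NELF and the polymerase. NELF then leaves, while DSIF stays and acts as a positive elongation factor. In NELF, the A and C/D subunits form 1 lobe, the B subunit joins that lobe to the E subunit, and the E subunit carries an RNA recognition motif.

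The scrambled libraries held 7337033 to 20269171 endogenous counts each, and the SUPT4H1 libraries held 6591194 to 11366971. On the second principal component of log2 CPM, SUPT4H1 siRNA replicate 6 stood at 42.5, outside the range of the other 11 libraries (−21.2 to 22.5). Keratin, vimentin, PAX2, N-cadherin and neurofilament transcripts, chosen as 6 markers of the line, summed to between 611 and 750 CPM in all 12 libraries. Of these markers, KRT18 fell (log2 −0.45, edgeR adjusted p = 0.00093), VIM (0.27, edgeR adjusted p = 0.011) and CDH2 (0.25, edgeR adjusted p = 0.018) rose, and 3 did not pass the test. The 7 markers of other cell types summed to at most 1.28 CPM, and PTPRC and HBB had no count. Of the line markers, PAX2 (means of 1.59 CPM with scrambled and 1.00 with SUPT4H1 siRNA) and the neurofilament gene NEFM (1.55 and 1.12) added little to their sum. Both were not far above LUM (0.747 and 0.638), a marker from the other list. The labels describe separate transfections, so the p-values measure the spread between transfections of 1 culture. Fewer cells of a type and less RNA per cell cannot be told apart in such bulk samples.

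With SUPT4H1 siRNA, 1 of the 6 subunit genes rose (SUPT5H) and 3 fell (SUPT4H1, NELFA and NELFB), while NELFCD and NELFE did not pass the test. Among all 13811 genes tested, 20.0% rose and 20.2% fell, 40.2% in all (p under 0.05 by edgeR's quasi-likelihood test after Benjamini-Hochberg adjustment), so a called gene was common in this comparison. SUPT4H1 is the target of the siRNAs and its fall checks the labels. The values are CPM, a gene's count over the total of its library on a common scale, adjusted between libraries by TMM, so a change is relative to the other mRNAs of the same library. Each count is a tag near the 3′ end of a transcript, and levels of different genes are not compared here.

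**Figure D1:**
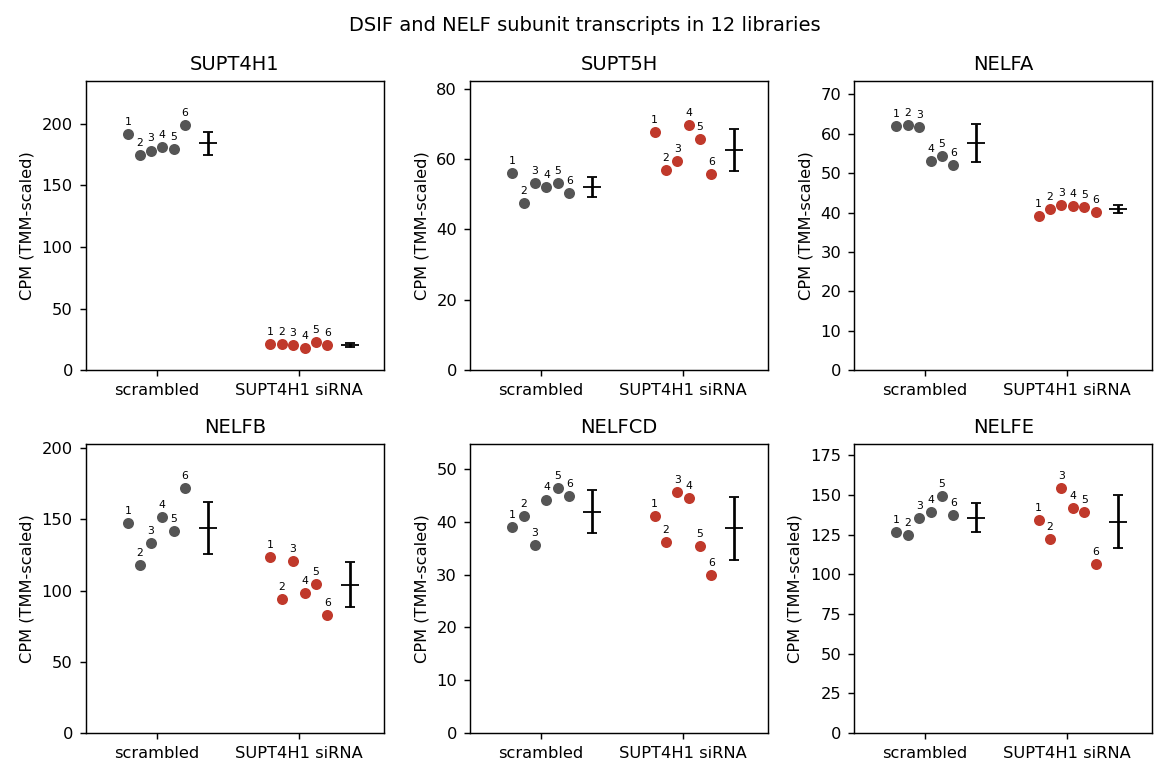
CPM (TMM-scaled, vertical axes starting at 0) of each DSIF and NELF subunit gene in 6 scrambled siRNA libraries (grey) and 6 SUPT4H1 siRNA libraries (red), with replicate numbers above the points and the mean ± SD beside them. The groups are apart for SUPT4H1 and NELFA, meet at about a point for SUPT5H, and overlap for NELFB, NELFCD and NELFE.

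SUPT4H1 (ENSG00000213246) is a protein-coding gene on the minus strand of chromosome 17, from 58345175 to 58353093 (GRCh38). It had 1335 to 3563 counts per library with scrambled siRNA and 133 to 245 with SUPT4H1 siRNA. The scrambled libraries ran from 175 CPM over a median of 180.4 to 199 CPM, and the SUPT4H1 libraries from 17.9 over 21.0 to 22.8 CPM. All 6 SUPT4H1 libraries lay far below all scrambled ones and close to each other. Set against the scrambled mean, the single SUPT4H1 libraries retained between 9.72% (replicate 4) and 12.4% (replicate 5). On the log2 scale it changed by −3.14 (SE 0.08, 95% interval −3.31 to −2.98, edgeR adjusted p = 2.57e-17), which left 11.3% of the scrambled level. Only 3 of the 13811 tested genes had a lower log2 fold change.

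Around SUPT4H1 only RNF43 could be tested, and it did not share this fall. RNF43, which encodes a ubiquitin ligase acting on Wnt receptors, overlaps the 5′ part of SUPT4H1 on the same strand by 594 bases. It had 37.1 CPM with scrambled and 33.3 CPM with SUPT4H1 siRNA, a log2 difference of −0.15 (SE 0.08, edgeR adjusted p = 0.13). TSPOAP1-AS1, which spans SUPT4H1 on the opposite strand, was at 0.542 and 0.705 CPM, too low to be tested. Both processed pseudogenes of SUPT4H1 were almost without counts, with 0 in 12 libraries for SUPT4H1P1 and 1 for SUPT4H1P2. GENCODE release 29 also places a longer gene, AC004687.2, on the same strand from 58345206 to 58417595. It was not among the genes with deposited counts, so it was not analysed here.

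SUPT5H (ENSG00000196235), the gene of the large DSIF subunit and SPT4's partner, lies on the plus strand of chromosome 19 from 39436156 to 39476670. It had 47.6 CPM in the lowest scrambled library, a median of 52.6 and 56.0 in the highest. With SUPT4H1 siRNA it ran from 55.9 over a median of 62.6 to 69.6 CPM. The groups met at a single point, where the lowest SUPT4H1 library (replicate 6) reached the highest scrambled one (replicate 1). The relative rise was small, with a log2 fold change of 0.27 (SE 0.08, 95% interval 0.10 to 0.43, edgeR adjusted p = 0.0099), or 120.2% of the scrambled level. Of all tested genes, 25.5% had a higher value. The neighbouring genes fell: RPS16, a ribosomal protein gene 207 bases upstream of this span on the opposite strand, by 0.43 on the log2 scale (edgeR adjusted p = 0.0070), and TIMM50, a mitochondrial import gene 3741 bases downstream of it, by 0.31 (edgeR adjusted p = 0.0091).

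NELFA (ENSG00000185049), on the minus strand of chromosome 4 from 1982714 to 2041903, encodes the NELF subunit that contacts the polymerase. It was at 52.1 CPM in the lowest scrambled library, 58.0 at the median and 62.2 in the highest. With SUPT4H1 siRNA the 6 libraries lay between 39.2 and 42.0 CPM, with a median of 41.2. The groups did not overlap, as for SUPT4H1, and the SD between SUPT4H1 libraries was 1.05 CPM against 4.83 CPM between scrambled ones. The log2 fold change was −0.49 (SE 0.08, 95% interval −0.65 to −0.34, edgeR adjusted p = 2.86e-05), or 71.0% of the scrambled level. The CPM of both groups did not overlap for 2 of the 6 subunit genes, NELFA and the siRNA target SUPT4H1, and for 20.4% of all tested genes. The target was set to separate by the design, so this count shows no excess over that share.

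NELFB (ENSG00000188986), on the plus strand of chromosome 9 from 137255173 to 137273546, encodes the subunit that bridges the lobes of NELF and is also known as COBRA1, a cofactor of BRCA1. The scrambled libraries had 118.2 CPM at the lowest, 145 at the median and 172 at the highest. The SUPT4H1 libraries had 82.8, 101.5 and 124 CPM. Scrambled replicate 2 was the low end of its group and lay below the highest SUPT4H1 libraries, replicates 1 and 3. The log2 fold change was −0.47 (SE 0.10, 95% interval −0.68 to −0.26, edgeR adjusted p = 0.00092), or 72.4% of the scrambled level. Of all tested genes, 13.2% had a lower value than NELFB.

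NELFCD (ENSG00000101158), on the plus strand of chromosome 20 from 58981208 to 58995133, encodes the NELF-C/D subunit, which pairs with NELF-A. Its scrambled libraries ran from 35.7 over a median of 42.7 to 46.5 CPM. Its SUPT4H1 libraries ran from 30.0 over a median of 38.7 to 45.6 CPM. The ranges overlapped, with 2 SUPT4H1 libraries, replicates 5 and 6, below all scrambled ones. The log2 difference was −0.11 (SE 0.10, 95% interval −0.32 to 0.10, edgeR adjusted p = 0.42), so a fall of the size seen for NELFA lay outside this interval.

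NELFE (ENSG00000204356), on the minus strand of chromosome 6 from 31952087 to 31959110, encodes the RNA-binding subunit. Its scrambled libraries ran from 125 over a median of 137 to 149.7 CPM and its SUPT4H1 libraries from 107 over a median of 137 to 155 CPM. The medians were nearly the same, and the SUPT4H1 libraries held both the lowest (replicate 6) and the highest value (replicate 3). The log2 difference was −0.02 (SE 0.08, 95% interval −0.20 to 0.15, edgeR adjusted p = 0.84). Without SUPT4H1 replicate 6 it was 0.03 (edgeR adjusted p = 0.75) and that of NELFCD was −0.04 (edgeR adjusted p = 0.72).

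**Figure D2:**
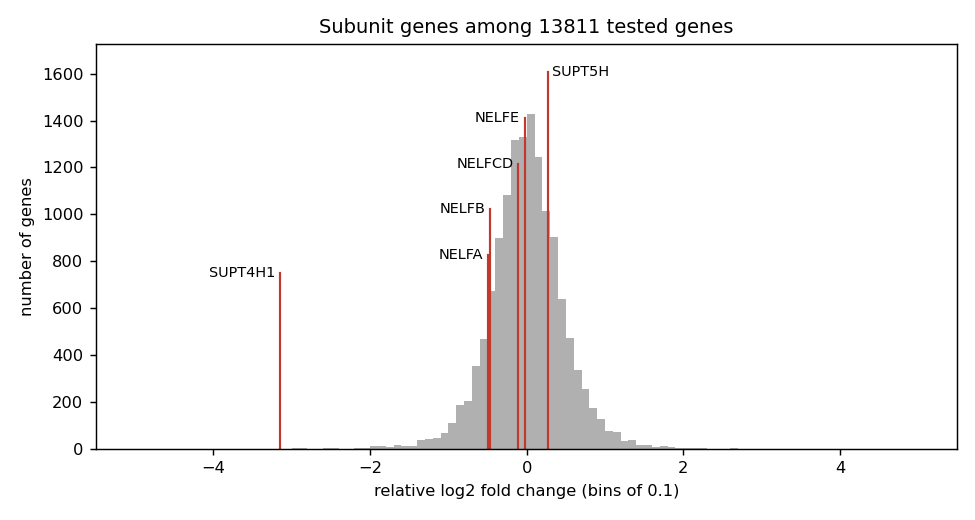
Number of genes (vertical axis) by relative log2 fold change (horizontal axis, bins of 0.1) for 13811 tested genes, with red lines at the 6 subunit genes (line height has no meaning). SUPT4H1 stands in the far lower tail at −3.14, and the other subunit genes lie within the bulk, between −0.49 (NELFA) and 0.27 (SUPT5H).

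Genes beside the NELF subunit genes were read as a check on overlapping tags, since the strand setting of the counting is not given. Distances and overlaps, here and above, are between the outer ends of GENCODE gene spans. The RefSeq starts used below lie well inside those spans for NELFA and SUPT5H, so a short distance does not mean neighbouring promoters. NSD2 (listed under its older symbol WHSC1), a histone methyltransferase gene that ends 506 bases from NELFA on the opposite strand, was lower by 0.21 on the log2 scale (edgeR adjusted p = 0.031), less than NELFA. C4orf48, which starts 89 bases from the other end of the NELFA span, had a log2 fold change of −0.29 (edgeR adjusted p = 0.0496). TOR4A, 4202 bases downstream of NELFB, was lower by 0.38 (edgeR adjusted p = 0.026). CTSZ, a cathepsin gene that runs towards NELFCD from 51 bases away, had a log2 difference of 0.10 (edgeR adjusted p = 0.51). SKIV2L, a helicase gene of cytoplasmic RNA decay whose 5′ end overlaps that of NELFE by 31 bases on the opposite strand, had 0.33 (SE 0.17, edgeR adjusted p = 0.14). The called neighbours of NELFA and NELFB had the same sign as the subunit gene. Those of SUPT5H, RPS16 and TIMM50, had the opposite sign to it. How far reads could be exchanged between such genes was not tested.

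The subunits were next compared with each other inside each library. A ratio of 2 counts from the same library does not depend on how libraries are scaled, so it holds for relative and for absolute amounts alike. The 15 pairs of subunit genes were compared with a two-sided exact permutation test that used the 924 splits of 12 libraries into 6 and 6, with p-values adjusted over the 15 pairs. The change passed 0.05 in 13 pairs. For 8 pairs the ratios of both groups did not overlap, and these had the smallest exact permutation p that the splits allow (p = 0.0022). All 5 pairs with SUPT4H1, the target of the siRNAs, are in both counts. The 15 ratios come from 6 genes, so they are not separate results. Pairs of other genes were not tested, so no share stands beside these counts.

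Within DSIF, SUPT4H1 shifted strongly against SUPT5H. The log2 ratio of SUPT4H1 to SUPT5H counts was 1.82 ± 0.09 (SD, n = 6) with scrambled and −1.59 ± 0.20 (SD, n = 6) with SUPT4H1 siRNA, a difference of −3.41 (95% interval −3.61 to −3.24, exact permutation adjusted p = 0.0041). SUPT5H in turn rose against every NELF subunit. Its ratio to NELFA moved by 0.75 (interval 0.56 to 0.93) and its ratio to NELFB by 0.74 (0.50 to 0.97), both without overlap between the groups. Its ratios to NELFCD (0.38, interval 0.14 to 0.62, exact permutation adjusted p = 0.014) and to NELFE (0.30, interval 0.12 to 0.45, exact permutation adjusted p = 0.0097) moved less, and the groups overlapped.

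Within NELF, the change was uneven. NELFA and NELFB each fell against NELFCD and NELFE in all 4 such combinations. The log2 ratio of NELFB to NELFE went from 0.08 ± 0.17 to −0.36 ± 0.14 (SD, n = 6 each), a difference of −0.44 (interval −0.64 to −0.25, exact permutation adjusted p = 0.0041) with no overlap. NELFA moved against NELFE by −0.45 (interval −0.72 to −0.21, exact permutation adjusted p = 0.0072), and NELFB against NELFCD by −0.35 (interval −0.56 to −0.15, exact permutation adjusted p = 0.012). The change of NELFA against NELFCD was −0.37 (interval −0.68 to −0.06, exact permutation adjusted p = 0.030) and passed 0.05 in 6 of 12 repeats that left out 1 library each. It missed the threshold without scrambled replicate 1, 2 or 3 or without SUPT4H1 replicate 1, 3 or 4, with adjusted p between 0.051 and 0.067.

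The 2 remaining pairs did not pass the test. NELFA against NELFB differed by −0.01 between the groups (interval −0.34 to 0.33, exact permutation adjusted p = 0.91). NELFCD against NELFE differed by −0.09 (interval −0.22 to 0.05, exact permutation adjusted p = 0.24).

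**Figure D3:**
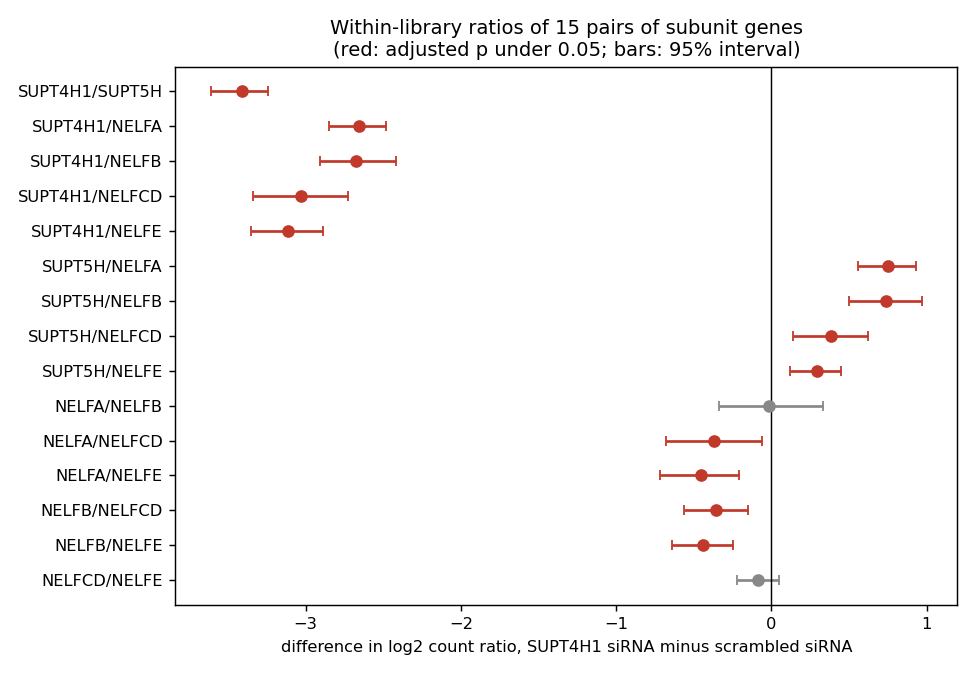
Difference between the groups (SUPT4H1 siRNA minus scrambled siRNA, n = 6 each) in the within-library log2 count ratio of each of 15 pairs of subunit genes (rows), with 95% intervals from inverting the exact permutation test. Pairs with adjusted p under 0.05 are red: all 5 with SUPT4H1, all 4 of SUPT5H with a NELF gene, and 4 of 6 within NELF, while NELFA/NELFB and NELFCD/NELFE are grey.

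ERCC standards gave a second scale. On it, each library was scaled by its counts of the 23 standards of subgroup B, which are equally concentrated in both mixes, so that the values stand for amounts per added standard. The median log2 fold change of all tested genes was then −0.82, against 0.00 on the relative scale, and 59.0% of all tested genes fell. That share depends on the standards used, since 8152 of 13811 genes fell with subgroup B and 2226 with subgroup C. Of the 6 subunit genes 5 fell, the siRNA target SUPT4H1 among them, and SUPT5H did not pass the test. That count has to be read against that share.

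On this scale SUPT4H1 changed by −3.94 in log2 units (SE 0.35, edgeR adjusted p = 1.28e-24), or 6.50% of the scrambled level. Its spike-in-scaled values ran from 184 over a median of 243 to 377 with scrambled and from 9.65 over 13.2 to 34.7 with SUPT4H1 siRNA, in units matched to the average CPM scale. NELFA and NELFB were at −1.30 (SE 0.32, edgeR adjusted p = 0.00064) and −1.31 (SE 0.32, edgeR adjusted p = 0.00049), below the median of all genes. NELFA had 63.7 to 110.3 with scrambled and 19.5 to 62.9 with SUPT4H1 siRNA, and the groups stayed just apart. NELFB ran from 138 over a median of 191 to 315 with scrambled and from 56.1 over 70.1 to 159 with SUPT4H1 siRNA, and its groups overlapped through SUPT4H1 replicate 5. NELFCD (−0.97, SE 0.32, edgeR adjusted p = 0.0080) and NELFE (−0.84, SE 0.32, edgeR adjusted p = 0.018) lay near the median of all genes. NELFE ran from 140.2 over a median of 173 to 290 with scrambled and from 71.8 over 88.2 to 212 with SUPT4H1 siRNA. SUPT5H, whose scrambled libraries lay between 54.9 and 108 and whose SUPT4H1 libraries lay between 27.6 and 99.8, had −0.54 (SE 0.32, 95% interval −1.16 to 0.09, edgeR adjusted p = 0.12), above that median.

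All 6 genes share each library's spike-in factor, so where a gene lies against the median largely carries over from the relative scale. The spread is pooled over genes by edgeR although they share that factor, so its p-values on this scale overstate the certainty. In an exact permutation test on this scale, adjusted over all tested genes, p was 0.026 for SUPT4H1, NELFA and NELFB. For NELFCD it was 0.028, for NELFE 0.032 and for SUPT5H 0.083. SUPT4H1 replicate 5 was the highest SUPT4H1 library for all 6 genes on this scale. Without it SUPT5H fell too (−0.85, edgeR adjusted p = 0.00053), as 1 of 12320 genes that then fell. The call of NELFE was lost without scrambled replicate 4 (edgeR adjusted p = 0.065), SUPT4H1 replicate 1 (0.053) or SUPT4H1 replicate 6 (0.055). Scaled by subgroup C of the standards, NELFCD (−0.65, edgeR adjusted p = 0.14) and NELFE (−0.52, edgeR adjusted p = 0.23) did not pass the test. Every SUPT4H1 sample received the other mix, so the mix and the siRNA cannot be told apart on this scale. RNA integrity numbers were 9.9 to 10 with scrambled and 9.6 to 10 with SUPT4H1 siRNA, the lowest being that of SUPT4H1 replicate 5. With that number as a covariate, all 6 genes fell on this scale, SUPT5H by 0.93 (edgeR adjusted p = 6.38e-06). So did 12861 of all 13811 tested genes, so this count says little about the subunit genes.

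**Figure D4:**
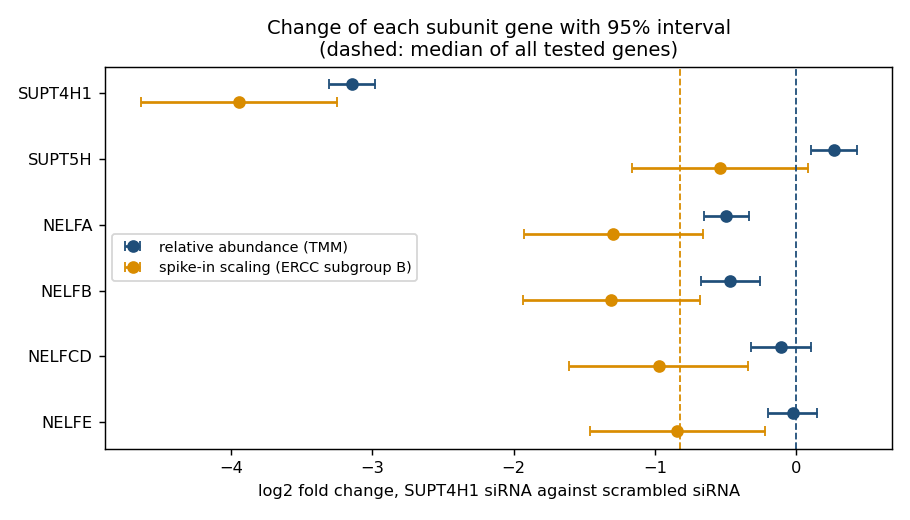
Log2 fold change of each subunit gene (SUPT4H1 siRNA against scrambled siRNA) with its 95% interval on the relative scale (blue) and with spike-in scaling (orange); dashed lines are the medians of all tested genes, 0.00 and −0.82. All genes of a library share 1 spike-in factor, so the nearly unchanged order of the genes is not a separate result. The spike-in intervals are wider.

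The promoters of the called genes other than the siRNA target, NELFA, NELFB and SUPT5H, are shown. RefSeq windows (GRCh38.p14) from 250 bases before to 50 after an annotated start were matched for all 6 genes, with 2 overlapping windows for SUPT5H. They are given 5′ to 3′ on the strand of the gene: NELFA at chr4:2008925-2009224 (minus), NELFB at chr9:137255077-137255376 (plus) and the first window of SUPT5H at chr19:39445332-39445631 (plus). Capitals mark matches on either strand to letters of the ETS family motif (CCGGAAG), the YY1 motif (AAGATGG), the GC box bound by SP1-type factors (GGGCGG) and the TATA box (TATAAA), picked after the windows had been read.
NELFA: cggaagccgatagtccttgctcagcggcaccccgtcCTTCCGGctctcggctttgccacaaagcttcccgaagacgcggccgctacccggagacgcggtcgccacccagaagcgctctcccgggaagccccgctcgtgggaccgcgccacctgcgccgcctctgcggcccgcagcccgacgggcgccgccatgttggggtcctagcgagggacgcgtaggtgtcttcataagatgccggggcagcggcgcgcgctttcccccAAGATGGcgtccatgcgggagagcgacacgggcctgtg
NELFB: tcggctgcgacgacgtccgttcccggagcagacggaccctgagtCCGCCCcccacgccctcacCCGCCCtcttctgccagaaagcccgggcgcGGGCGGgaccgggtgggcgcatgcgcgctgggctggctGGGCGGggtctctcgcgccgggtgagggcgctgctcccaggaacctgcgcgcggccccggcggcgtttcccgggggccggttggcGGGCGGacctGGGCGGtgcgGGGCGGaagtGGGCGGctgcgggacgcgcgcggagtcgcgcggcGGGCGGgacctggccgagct
SUPT5H: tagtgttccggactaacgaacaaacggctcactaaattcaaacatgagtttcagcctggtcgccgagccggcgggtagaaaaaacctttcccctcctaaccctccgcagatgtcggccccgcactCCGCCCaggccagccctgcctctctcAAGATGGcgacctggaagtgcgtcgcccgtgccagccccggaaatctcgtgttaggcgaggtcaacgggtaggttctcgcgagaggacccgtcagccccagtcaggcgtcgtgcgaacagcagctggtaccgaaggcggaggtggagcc

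The NELFA and SUPT5H windows each hold 1 YY1 match, from base 12 to 18 after the start in NELFA and from −99 to −93 in SUPT5H, counting the annotated start as 0. Of 35116 RefSeq promoter windows, 5.84% hold such a match. NELFB has neither that nor an ETS match and holds 9 GC box matches, a motif found in 45.0% of all windows, while NELFA has none. ETS matches, present in 10.3% of windows, number 1 in NELFA and 2 each in SUPT4H1 and NELFE. No window of the 6 genes has a TATAAA match, which 11.5% of all windows hold. The windows of the 6 genes all lie above the median of 58.7% G and C. They run from 61.7% (the first of SUPT5H), higher than 57.7% of all windows, to 79.3% (NELFB), higher than 96.7% of them. Among these motifs NELFA and NELFB share no match, NELFA and SUPT5H share the YY1 letters, and NELFB and SUPT5H share the GC box. GC box matches are also found in SUPT4H1 (5), NELFCD (4) and NELFE (3). Any part of these matches in the changes was not tested.

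By the root mean square difference between log2 CPM profiles over the 12 libraries, each centred on its own mean, the genes most like each subunit gene were found among all tested genes. SUPT4H1 was nearest to KDF1 (0.36) and the small RNA gene SCARNA23 (0.37), against a median distance of 1.59 over all genes. For the other subunit genes that median lay between 0.31 (NELFE) and 0.40 (NELFB). SUPT5H was nearest to PRAF2 (0.08) and HSDL1 (0.08). NELFA was nearest to TARS (0.07), a threonyl-tRNA synthetase gene, and PCBP2 (0.07), an RNA-binding protein gene. NELFB was nearest to the mitochondrial genes MRPS34 (0.06) and NDUFA6 (0.07). NELFE was nearest to CCZ1 (0.06) and TTC26 (0.06). NELFCD was nearest to the unnamed gene ENSG00000270006 (0.06) and to MLLT1 (0.08), a subunit of the super elongation complex. No subunit gene was among the nearest 2 of another.

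Other genes of pausing and elongation were read from a list of 54 genes found in the table, 52 of them tested. Of these 12 rose, 7 fell and 33 did not pass the test, with a median log2 fold change of 0.04 against 0.00 over all genes. These counts stand beside 20.0% of all tested genes that rose and 20.2% that fell. With spike-in scaling the list's median was −0.76 and 32 of the 52 fell, beside 59.0% of all genes that fell with the same subgroup B standards. On that scale 0 of the 52 rose, and 43 of all 13811 tested genes did. EAF1 had 0.68 there (edgeR adjusted p = 0.062) and PPP1R10 had 0.07 (edgeR adjusted p = 0.84). The rises and falls named below are therefore on the relative scale only.

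Among the transcripts of P-TEFb, the kinase that releases the polymerase from the pause, those of the cyclin genes fell. CCNT2 was at a log2 fold change of −0.54 (edgeR adjusted p = 0.0016) and CCNT1 at −0.34 (edgeR adjusted p = 0.0022), while HEXIM1, which inhibits P-TEFb within the 7SK particle, rose by 0.52 (edgeR adjusted p = 0.029). The kinase gene CDK9 had 0.53 at only 3.85 and 5.58 CPM in the groups (edgeR adjusted p = 0.056). The 7SK RNA itself, which lacks a poly(A) tail, had no counts. PPP1R10, which encodes PNUTS, the targeting subunit of the phosphatase that acts on SPT5 at the ends of genes, rose from 38.3 to 70.1 CPM with no overlap between the groups (log2 0.87, edgeR adjusted p = 6.44e-06). Of its partners, WDR82 rose (0.40, edgeR adjusted p = 0.00020). Of 3 catalytic subunit genes PPP1CC fell (−0.38, edgeR adjusted p = 0.0012), while PPP1CA (0.05, edgeR adjusted p = 0.82) and PPP1CB (−0.01, edgeR adjusted p = 0.95) did not pass the test.

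In the super elongation complex and its partners, which join P-TEFb at genes, EAF1 rose from 10.2 to 28.2 CPM (log2 1.45, edgeR adjusted p = 2.44e-05) and MLLT3 rose by 0.55 (edgeR adjusted p = 0.0011). EAF2, the paralog of EAF1, fell (−0.70, edgeR adjusted p = 0.0088). Among 14 Integrator genes, whose complex cleaves RNA at paused polymerase, 3 rose and 3 fell, led by INTS5 (0.91, edgeR adjusted p = 2.77e-07), INTS10 (−0.61, edgeR adjusted p = 5.30e-06) and INTS9 (0.52, edgeR adjusted p = 0.00090). The 6 genes of the PAF1 complex, an elongation complex that travels with the polymerase, lay between −0.11 (PAF1) and 0.26 (CTR9, edgeR adjusted p = 0.065), and CTR9 had the smallest p among them. Of 7 histone chaperone and elongation factor genes 1 rose, SUPT6H, which encodes the elongation factor SPT6 (0.32, edgeR adjusted p = 0.019).

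**Figure D5:**
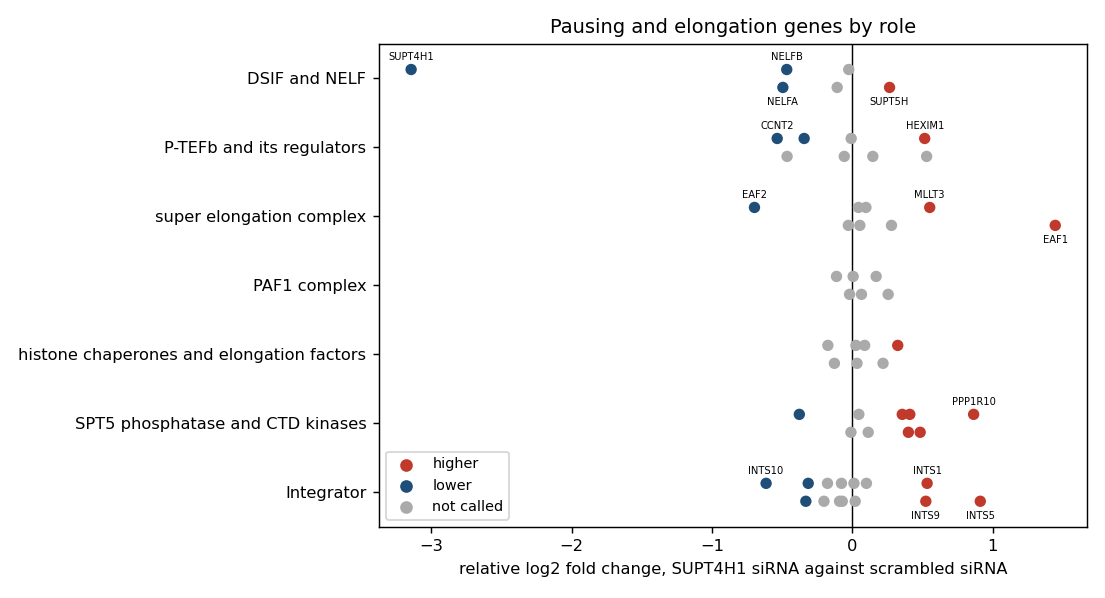
Relative log2 fold change (horizontal axis) of the 6 DSIF and NELF genes and of 52 other tested pausing and elongation genes, 1 row per role; points are genes, red rose, blue fell (edgeR adjusted p under 0.05) and grey did not pass, with small vertical offsets for legibility. Names are given for subunit genes that passed and for others beyond 0.5; SUPT4H1 at −3.14 is the lowest point, and EAF1 at 1.45 is the highest.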

How the data were processed

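QuantSeq 3′ libraries were made from 200 ng RNA, per the labels' protocols. The authors deposited raw whole-number counts for 57704 genes, 92 ERCC standards and a GFP row. FastQC 0.11.5, STAR, MultiQC, R 3.4.3 and GRCh38.p10 are named in the submitters' processing notes; the counting tool, annotation release and use of strand were not given in the sources used here. Positions came from GENCODE 29 (GRCh38).

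Counts were tested with edgeR 4.0.16 (robust quasi-likelihood, filterByExpr, TMM over endogenous genes, R 4.3.3) over all 12 libraries, and p-values were adjusted over all 13811 genes. The SE is the log2 fold change over the root of F. Spike-in scaling used ERCC subgroup B, assigned from general knowledge of the product. Ratios used counts plus 0.5. Alternatives included DESeq2 1.42.0 and limma-voom 3.58.1. Scripts were tested on simulated counts. Library pairs within groups differed beyond sampling noise in all 30 comparisons (chi-square per degree of freedom at least 4.23).

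The members and lists were chosen with earlier results of these data known. Named are the 6 members, genes within 5 kb, up to 3 called list genes per role by adjusted p, and the 2 nearest profiles per member; CDK9, PAF1, CTR9, PPP1CA, PPP1CB and the called line markers were chosen after their values were seen.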

Additional observations from a re-analysis of the deposited data

Results flagged for a closer look

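On the spike-in scale, 1 library lay far from the others of its group for every subunit gene. SUPT4H1 siRNA replicate 5 was at 34.7 for SUPT4H1, 99.8 for SUPT5H, 62.9 for NELFA, 159 for NELFB, 54.0 for NELFCD and 212 for NELFE, each apart from the next highest SUPT4H1 library by more than Dixon's 95% critical value allows. It had the lowest count of subgroup B standards in its group (14899 against 24096 or more) and the lowest RNA integrity number (9.6), whose part in this was not tested. All genes of a library share its scaling factor, so these are 6 views of 1 library. Scrambled siRNA replicate 4, at 290 for NELFE, lay apart from its group in the same way, with 8555 counts of those standards. Of 24 sets of 6 values examined, 7 held such a library. Chance would give about 1.2 if the sets were separate. They share libraries and scaling factors, so these figures cannot be set against each other directly. No library stood apart in this way in CPM for any of the 6 genes.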

How the results depend on the processing

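The relative changes of the 6 genes kept their side of the threshold in all repeats that left out 1 library and under DESeq2 size factors, the DESeq2 test, limma-voom, no filter, RNA integrity as a covariate and the replicate block. NELFE changed sign, without passing the test, with that covariate and without scrambled replicate 5 or SUPT4H1 siRNA replicate 2 or 6. Tested against a minimum change of 1.5-fold, SUPT5H (0.27), NELFA (−0.49) and NELFB (−0.47) did not pass, and SUPT4H1 did. With RNA integrity as a covariate, 4 list genes fell in place of 7.

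With spike-in scaling, NELFCD was at −0.65 and NELFE at −0.52 with subgroup C, and SUPT5H at −0.93 (edgeR adjusted p = 6.38e-06) with the RNA integrity covariate. Of all genes, 43 rose and 8152 fell, 69 and 2226 with subgroup C, 27 and 12861 with the covariate, and 96 rose with no filter. Leaving out 1 library gave 28 to 62 rises and 5650 to 12320 falls, the latter without SUPT4H1 siRNA replicate 5, and values from −0.85 to −0.39 for SUPT5H and −1.16 to −0.68 for NELFE. The ratio of NELFA to NELFCD then ran from −0.44 to −0.30, and that of NELFCD to NELFE from −0.13 to −0.048, passing only without scrambled replicate 3 (adjusted p = 0.020). The cause was not tested.

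Samples with the same replicate number did not deviate together (correlations −0.29 to 0.05), so the numbers pair nothing, and 0 of 6 matched best with their own number. With the replicate block 2411 genes rose and 2426 fell against 2768 and 2789. In the block version of the ratio test, the changes of SUPT5H to NELFCD (0.38) and NELFE (0.30) and of NELFA to NELFCD (−0.37) missed the threshold (exact permutation adjusted p = 0.078, 0.078 and 0.11). Depth limits the precision of SUPT4H1 after siRNA, NELFCD and NELFA, with as few as 133, 205 and 275 counts in a library.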

Other observations

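NELFA varied in an uneven way between scrambled libraries. Replicates 1, 2 and 3 were at 61.9, 62.2 and 61.6 CPM, and replicates 4, 5 and 6 at 53.1, 54.3 and 52.1 CPM, with nothing in between. NELFCD was at 39.1, 41.1 and 35.7 CPM in the former and 44.3, 46.5 and 44.9 CPM in the latter, so the log2 ratio of NELFA to NELFCD was 0.60 to 0.79 in replicates 1, 2 and 3 and 0.21 to 0.26 in replicates 4, 5 and 6. In the SUPT4H1 libraries the ratio lay between −0.12 and 0.42, and replicates 5 (0.22) and 6 (0.42) exceeded the lowest scrambled library (0.21). The labels give no batch that would set these libraries apart, and the pattern was noticed in the data and was not tested.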
